A study of Mus musculus with 8 samples.

Results

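Beta-selected DN3 blasts are CD25-positive thymocytes that have rearranged a T cell receptor beta gene and entered the cell cycle. They were taken here as the cells of the DN3 expression libraries that the authors' deposited cell table places in cluster 3 or cluster 4, and the knock-in (KI) library was compared with the wild-type (WT) library within them. The rule found 309 WT blasts and 485 KI blasts, 794 of the 6183 DN3 cells and of the 10237 cells of the series. The study profiled CD4- CD8- (double-negative) thymocytes of C57BL/6J mice (WT) and of mice whose GSK3B kinase carries an exchange of 1 serine for alanine (Ser389Ala, KI). Thymocytes were depleted on magnetic beads with antibodies to MHC class II, CD11b, CD4, CD8 and kappa chain and then sorted as DN3 (CD44- CD25+) or DN4 (CD44- CD25-). Each genotype and stage gave 1 library of 5′ single-cell expression and 1 of T cell receptor sequences. The number, age and sex of the mice, any pooling, and the genetic background of the KI line are not given in the sources used here.

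In the thymus, a DN3 cell whose beta chain rearrangement is in frame displays that chain with the invariant pre-T alpha chain as the pre-T cell receptor. Signals through this receptor end beta chain rearrangement, drive several rapid divisions and start the loss of CD25 on the way to the DN4 and double-positive stages, a checkpoint called beta-selection. GSK3B is a kinase that is active in unstimulated cells and restrained by phosphorylation, and p38 kinase places one such phosphate on the serine replaced in the KI mice. Ser389 is encoded by 1 of the 420 codons of transcript Gsk3b-201, in exon 10 of 11, at chr16:38228746-38228748 on the plus strand of GRCm38. It is printed here because it is the one designed difference between the genotypes. The reference coding sequence (GENCODE vM21) around it is given 5′ to 3′, with the serine codon in capitals.
Gsk3b Ser389 codon: caggccgctgctTCAccgcctgccaac

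Each group was 1 library. No p-value was therefore computed, and every interval below is a 95% interval that covers counting error only and not the difference between animals or preparations. The measure is the number of unique molecular identifiers (UMIs, counted RNA molecules) of a gene summed over the blasts of a library, given as a level scaled to the total UMIs of those cells (CPM). Differences are log2 ratios of KI to WT CPM with exact binomial intervals in brackets, so that 1 is 2-fold higher and -1 is 2-fold lower in KI.

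The blasts gave 6543068 UMIs in WT and 9797041 in KI. Median depth was 20938 UMIs per WT cell and 19857 per KI cell, and the median number of genes per cell was 4207 and 4120. After thinning each cell to 5000 UMIs the medians were 1931 and 1935 genes, with 2 WT and 3 KI cells too shallow to enter. Mitochondrially encoded genes held a median of 1.77% and 1.88% of UMIs. The DN3 libraries shared 17 cell barcodes, none of which was a blast in both. A doublet caller marked 4 of 2885 WT and 5 of 3298 KI DN3 cells, too few to be relied on, and no cell was removed as a doublet.

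The levels of Il2ra and Mki67 fitted the label of cycling cells leaving DN3. Il2ra, which encodes CD25, was at 186 CPM in WT and 163 CPM in KI blasts, against 657 and 646 CPM in resting DN3 cells (clusters 0 and 1) and 4.02 and 3.92 CPM in DN4 blasts. The blasts thus held CD25 mRNA below the resting cells of the same sort and above the DN4 blasts. Mki67, a marker of dividing cells, was at 200 and 219 CPM in WT and KI blasts and at 1.33 and 2.31 CPM in resting DN3 cells. Cd4 (0.153 and 0.204 CPM) and Cd8a (1.22 and 0.817 CPM) were close to 0, and Cd8b1 was at 13.4 and 13.7 CPM. The summed level of B lineage markers was 254 CPM in both libraries, most of it Ighm at 226 and 230 CPM. Cd79b was at 24.8 and 22.9 CPM, and Cd79a at 0.153 CPM in WT and 0 in KI. Myeloid markers summed to 147 and 153 CPM, most of it Cst3 at 98.6 and 104.5 CPM. The gamma delta markers Trgv2 (560 and 395 CPM) and Trdc (179 and 189 CPM) were also present. So was the stromal marker Epcam (42.9 and 49.1 CPM). Each of these 3 was lower than in resting DN3 cells of the same library, where Epcam was at 210 and 303 CPM. Natural killer and innate markers summed to 772 and 715 CPM, most of it Gzma, a granzyme gene, at 716 and 673 CPM. Nkg7, of cytotoxic granules, was at 42.3 and 32.4 CPM, and Klrd1, Ccl5 and Eomes were at 0 in both.

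Blasts were a larger share of the KI DN3 library. They made up 10.7% of the WT library (309 of 2885 cells, exact 95% limits 9.61 and 11.9) and 14.7% of the KI library (485 of 3298, limits 13.5 and 16.0). Among the DN3 cells with a productive beta chain contig, blasts were 44.1% in WT (40.0 to 48.1, of 597 cells) and 55.8% in KI (52.1 to 59.4, of 728). Neither pair of intervals overlapped. The sort gate can set such shares, and with 1 library a genotype they cannot be told apart from differences between sorts. The inner makeup of the blasts differed less. Cluster 4, led by the mitotic genes Nusap1, Plk1 and Ube2c, held 68.9% of WT blasts (63.4 to 74.1) and 71.5% of KI blasts (67.3 to 75.5). Cluster 3, led over the series by Cd8b1 and by the S phase genes Ung, Hells and Cdc6, held the rest. In the DN3 cells of cluster 3, Cd8b1 was at only 23.4 CPM in WT and 19.4 CPM in KI. By the deposited phase calls, S phase cells were 68.9% (63.4 to 74.1) of WT and 63.7% (59.3 to 68.0) of KI blasts, and G2M cells were 30.7% (25.6 to 36.2) and 36.3% (32.0 to 40.7). These intervals overlapped.

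**Figure D1:**
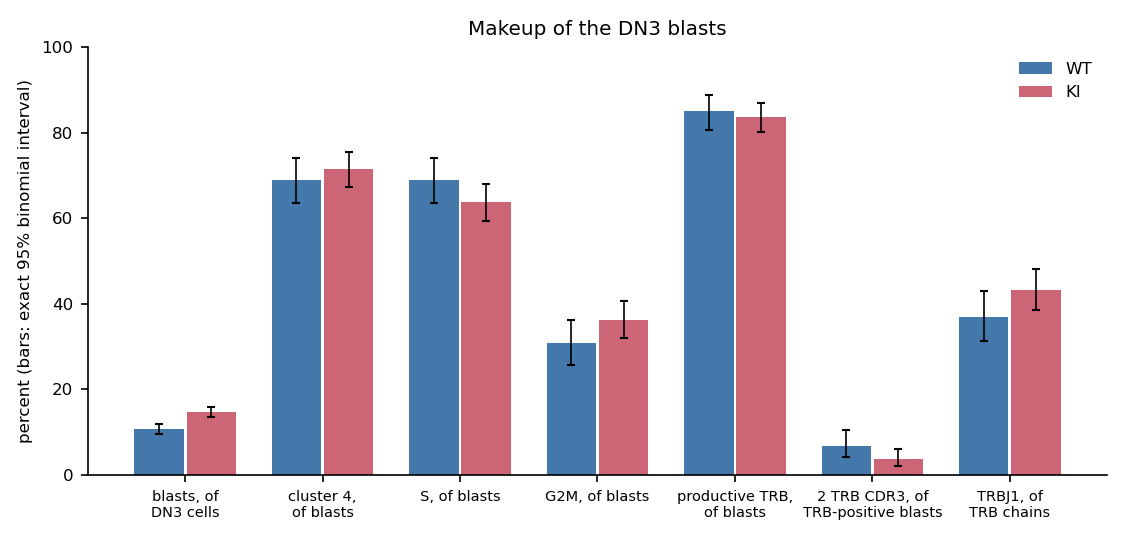
Percent of cells or chains (y axis, from 0) in WT and KI DN3 blasts, as bars with exact 95% binomial intervals, for the blasts' share of DN3 cells, cluster 4, S and G2M phase, productive TRB contigs, cells with 2 or more TRB CDR3 sequences and TRBJ1 use. The intervals of the blasts' share do not overlap (10.7% in WT, 14.7% in KI), while those of the other shares overlap.

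The beta chain repertoire of the blasts was described next, since diversity of the receptor repertoire is a question the series' title names. A productive beta chain contig was found in 263 of 309 WT blasts (85.1%, 80.6 to 88.9) and in 406 of 485 KI blasts (83.7%, 80.1 to 86.9). In resting DN3 cells of the same libraries it was found in 6.87% and 4.78%. A productive alpha chain was found in 0 of 309 WT blasts, which allows a share of up to 0.971%, and in 1 of 485 KI blasts (0.206%). Most blasts of both genotypes thus had a productive beta chain, and at most 1 per library had a productive alpha chain. Cells with 2 or more different beta chain CDR3 sequences were 18 of 263 in WT (6.84%, 4.11 to 10.6) and 15 of 406 in KI (3.69%, 2.08 to 6.02), intervals that overlap. Counting only contigs with at least 3 UMIs, they were 6.46% and 2.71%.

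Almost every chain was seen once. The 281 WT chains held 280 different CDR3 nucleotide sequences and the 421 KI chains held 420, and none was found in both libraries. One sequence in each library was carried by 2 cells, all 4 of them in cluster 4, and both are printed because they are the only repeated chains. CDR3 sequences are written 5′ to 3′ from the codon of the conserved cysteine to that of the conserved phenylalanine, and capitals mark these end codons. The WT chain joins TRBV10 to TRBJ2-5 and the KI chain joins TRBV12-1 to TRBJ1-4.
WT shared TRB: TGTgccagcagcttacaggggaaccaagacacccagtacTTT
KI shared TRB: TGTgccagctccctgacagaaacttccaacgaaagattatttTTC

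Across 22 V segment names and 12 J segment names, 0 had intervals that did not overlap between genotypes. The V segments furthest apart were TRBV15, with 4.63% of WT chains (2.49 to 7.78) and 8.55% of KI chains (6.06 to 11.6), and TRBV13-1, with 8.54% (5.55 to 12.4) and 4.99% (3.11 to 7.52). TRBV16 held 7.83% of WT and 5.70% of KI chains, and TRBV12-2 held 3.20% and 5.23%. A separate joint name, TRBV12-2+TRBV13-2, held 9.96% of WT and 8.55% of KI chains. The share of TRBV12-2 alone thus depends on how contigs were named. The first J cluster (TRBJ1) was joined in 37.0% of WT (31.4 to 42.9) and 43.2% of KI chains (38.4 to 48.1). CDR3 length was 42.3 ± 4.52 nucleotides (SD over 281 chains) in WT and 42.6 ± 4.66 (421 chains) in KI. No interval of these differences between genotypes was computed.

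Expression of most genes was close in the 2 genotypes. Of the 15653 genes in the matrix, 5273 had at least 20 CPM in either library. Of these 5273, 95.8% had a log2 ratio within 0.5 of 0, and the median was 0.02. By direction, 7 genes were at least 2-fold higher in KI (0.133% of genes tested) and 30 were at least 2-fold lower (0.569%), 37 in all (0.702%). The lower genes comprised 14 histone genes, 3 ribosomal protein genes, 3 receptor segment genes and 10 others. The interval lay above 0 for 998 genes (18.9%) and below 0 for 720 (13.7%), which shows how narrow counting intervals are at this depth: the median width was 0.39 on the log2 scale.

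**Figure D2:**
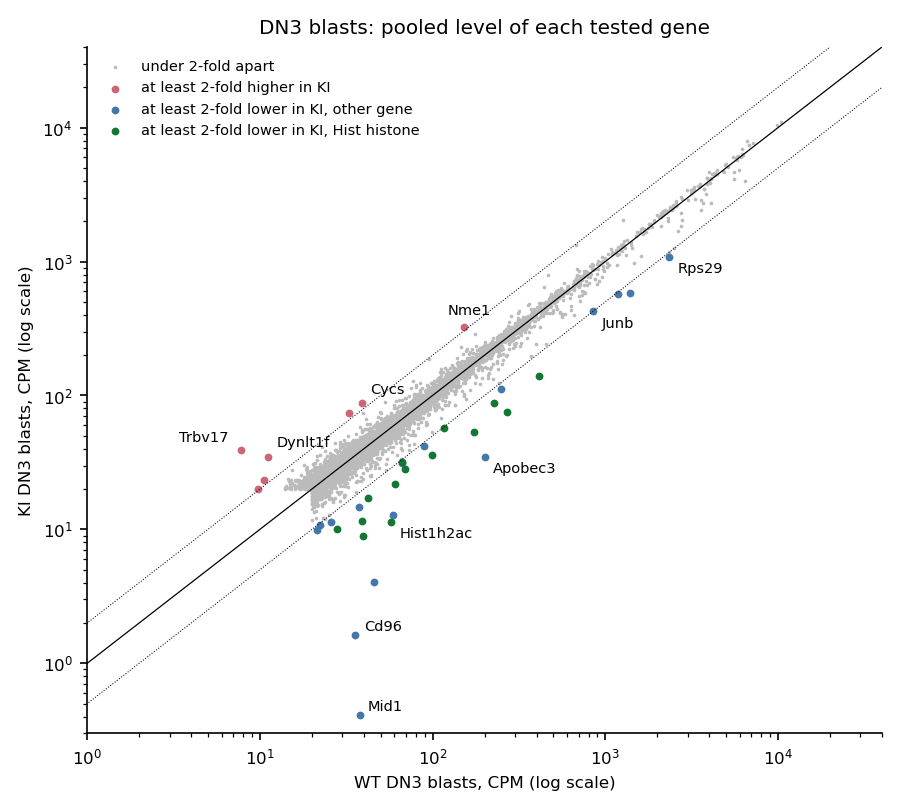
Pooled level of each of 5273 genes in WT (x axis, CPM, log scale) and KI DN3 blasts (y axis, CPM, log scale), with a solid line of equal levels, dotted lines at 2-fold, and genes past 2-fold coloured as higher, lower, or lower histone genes. Most points lie along the solid line, and Mid1, Cd96 and Apobec3 lie well below it.

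The mRNA of the mutated kinase differed little between the genotypes. Gsk3b was at 72.0 CPM in WT blasts (471 UMIs) and 60.2 CPM in KI blasts (590 UMIs), a log2 ratio of -0.26 [-0.43, -0.08]. Its ratio was -0.21 in resting DN3 cells and -0.16 in DN4 blasts. A change of 1 codon cannot be read from gene counts, so these values do not check the genotype labels. Among the 10 measured genes of the list of GSK3 and the kinases around it, the median was -0.05. Of these, 0 had intervals above 0 and 2 had intervals below 0, against 18.9% and 13.7% of all genes. The other one below 0 was Map2k3, a kinase that activates p38, at 46.5 and 39.0 CPM (-0.25 [-0.47, -0.03]). Mapk14, which encodes p38 alpha, was at 43.6 and 45.4 CPM (0.06 [-0.16, 0.28]). Ctnnb1, which encodes the GSK3 substrate beta-catenin, was at 129 CPM in WT and 130 CPM in KI blasts (0.01 [-0.12, 0.14]). Mcl1, a survival protein whose stability GSK3 controls, was at 31.6 and 35.1 CPM (0.15 [-0.10, 0.41]).

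Mid1, Cd96, Gm47283 and Apobec3 had the lowest ratios of all genes tested, and Mid1 was close to absent from KI blasts. All 4 were also lower in KI cells of the other stages. Mid1, a microtubule-binding ubiquitin ligase gene on chromosome X (169685199 to 170005736), had 248 UMIs in WT blasts and 4 in KI blasts, or 37.9 and 0.408 CPM (-6.54 [-8.42, -5.16]). Its log2 ratio was -6.03 in resting DN3 cells and -6.21 in DN4 blasts. Gm47283, a predicted gene placed on chromosome Y (90784738 to 90816464), was at 45.5 and 4.08 CPM (-3.48 [-3.99, -3.0001]). Xist, the RNA of the inactive X chromosome, was at 442 CPM in WT and 418 CPM in KI blasts (-0.08 [-0.15, -0.01]). Both libraries held Xist at like levels while Mid1 and Gm47283 differed. The sex of the mice is not given, and the reason for these differences was not tested.

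Apobec3 encodes a cytidine deaminase that restricts retroviruses (chromosome 15, 79891659 to 79915906). It was at 200.5 CPM in WT and 35.0 CPM in KI blasts, 5.73-fold lower (-2.52 [-2.69, -2.35]), with -2.14 in resting DN3 cells and -2.16 in DN4 blasts. Cd96, an immunoglobulin family receptor of T and natural killer cells, was at 35.8 CPM (234 UMIs) and 1.63 CPM (16 UMIs), a log2 ratio of -4.45 [-5.28, -3.72]. It was also low in KI resting DN3 cells (-4.95) and DN4 blasts (-4.10). These comparisons use separate cells of the same DN3 libraries and, for DN4, a further pair of libraries from the same genotypes.

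Cd96 lies on chromosome 16 (46035657 to 46120251), 7.79 Mb from Gsk3b (38089001 to 38246084). At 20 CPM, 36 genes within 10 Mb of Gsk3b were measured, and Cd96 itself was the 1 at least 2-fold apart, while 0 of the 127 other chromosome 16 genes was. With the minimum lowered to 5 CPM, 6 of 71 genes near Gsk3b were at least 2-fold apart (8.45%), against 4 of 203 elsewhere on chromosome 16 and 1.15% of all 8442 genes. These genes were named after their values were seen. Arhgap31, a GTPase-activating protein gene 0.352 Mb away, was at 18.5 CPM in WT and 1.94 CPM in KI blasts (-3.25 [-4.03, -2.55]). B4galt4, a galactosyltransferase gene 0.496 Mb away, was at 8.56 and 0.612 CPM (-3.80 [-5.31, -2.59]). Plcxd2, 7.71 Mb away, was at 9.32 and 1.84 CPM (-2.34 [-3.19, -1.57]). Neighbours were not all lower. Cd200, an inhibitory ligand gene 7.14 Mb away, was at 3.06 CPM in WT and 15.4 CPM in KI blasts (2.33 [1.66, 3.09]). Bex6, 5.90 Mb away, was at 2.90 and 6.12 CPM (1.08 [0.31, 1.90]). All 6 had the same direction in resting DN3 cells and in DN4 blasts, where for example B4galt4 had log2 ratios of -2.54 and -2.597 and Cd200 of 1.93 and 3.23. Flanking sequence carried with the edited allele and the edit itself cannot be told apart in this design.

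The other genes at least 2-fold lower had varied roles. Junb, an AP-1 transcription factor of the immediate early response, was at 853 CPM in WT and 424 CPM in KI blasts (-1.01 [-1.07, -0.95]). It was lower by a like ratio in resting DN3 cells (-0.94, from 4616 to 2399 CPM) and DN4 blasts (-1.19). Il6ra, the interleukin-6 receptor gene, was at 21.4 and 9.90 CPM (-1.11 [-1.50, -0.73]). Banp, a nuclear matrix-associated DNA-binding protein gene, was at 37.3 and 14.8 CPM (-1.33 [-1.64, -1.03]). Rbmxl1 was at 66.2 and 31.2 CPM (-1.08 [-1.30, -0.87]). Emb, which encodes the membrane glycoprotein embigin, was at 89.3 and 41.9 CPM (-1.09 [-1.28, -0.91]) and differed more in resting DN3 cells, at 87.1 and 14.3 CPM (-2.61). Just short of 2-fold were Ly6a (Sca-1; 23.1 and 12.2 CPM, -0.93 [-1.28, -0.57]) and Slc38a2, an amino acid transporter gene (99.0 and 52.98 CPM, -0.90 [-1.07, -0.73]).

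Replication-dependent histone genes formed the largest group of lower genes. These genes sit mainly in clusters on chromosomes 13 and 3, supply the core and linker histones that package newly made DNA, and mostly yield mRNAs that end in a stem-loop. How fully mRNAs with this ending were captured in each library is not known. The part of capture in the differences below was not tested. Of the 66 genes of the list, 24 passed 20 CPM in either library, and the sum over the whole list was 2725 CPM in WT and 1271 CPM in KI blasts. Of these 24, 14 were at least 2-fold lower in KI (0.569% of all genes), 23 had intervals below 0 (13.7%) and 0 had an interval above 0 (18.9%). Their median log2 ratio was -1.17, against 0.02 for all genes, and the summed level of these 24 was 2498 CPM in WT and 1129 CPM in KI blasts. Hist3h2ba was the exception, at 26.3 and 27.8 CPM (0.08 [-0.20, 0.36]). Some of the 24 passed the minimum through WT alone, such as Hist1h2ac (11.4 CPM in KI) and Hist1h2bh (8.88 CPM in KI). The ratio of such a gene can only be below 0, which bears on the counts and the median. The sum over the whole list does not depend on the minimum.

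Among the linker histones, Hist1h1a was at 412 CPM in WT and 140 CPM in KI blasts (-1.56 [-1.65, -1.46]). Hist1h1d was at 226 and 87.5 CPM (-1.37 [-1.49, -1.25]). Hist1h1b differed less, at 237 and 174 CPM (-0.44 [-0.54, -0.34]). Among the core histones, the lowest ratios were those of the H2A gene Hist1h2ac and the H2B gene Hist1h2bh, while the H2B genes Hist1h2bm (-0.56) and Hist3h2ba were nearer 0 than the H3 genes. Hist1h2ac was at 57.8 and 11.4 CPM (-2.34 [-2.65, -2.03]). Hist1h2bh was at 39.7 and 8.88 CPM (-2.16 [-2.53, -1.81]). Hist1h2bj was at 270.4 and 75.9 CPM (-1.83 [-1.96, -1.71]), and Hist1h2ae at 173 and 52.98 CPM (-1.71 [-1.86, -1.56]). For H3 and H4, the lowest ratios were those of Hist1h3e, at 99.8 and 36.03 CPM (-1.47 [-1.66, -1.28]), and Hist1h4c, at 28.0 and 10.0 CPM (-1.48 [-1.85, -1.12]). Nearer 0 were the H3 genes Hist1h3g (-0.997), Hist1h3i (-0.92) and Hist1h3a (-0.91) and the H4 genes Hist1h4d (-0.75) and Hist1h4i (-0.27). Histone copies are near-identical in their coding regions, so the division of reads among single copies is uncertain while the summed level is less affected.

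The histone ratios were further below 0 in cluster 4 than in cluster 3. Although mitotic genes lead cluster 4, most of its blasts were called S phase (61.0% in WT and 55.9% in KI). Over the same 24 genes, the median was -1.28 in cluster 4, with 23 intervals below 0, and -0.49 in cluster 3, with 9 below 0 and 0 above. The summed level was 3102 and 1303 CPM in WT and KI cells of cluster 4 and 902 and 614 CPM in cluster 3. Hist1h1b (0.22 [-0.11, 0.54] in cluster 3, -0.54 in cluster 4) and Hist1h2ap (0.29 [-0.16, 0.75] and -1.25) had opposite signs in the clusters. So did Hist3h2ba (-0.07 [-0.73, 0.61] and 0.10) and Hist1h3g (0.68 [-0.97, 2.55] and -1.14), which had few UMIs in cluster 3. The cluster 3 interval of each of these genes included 0. By phase, the median was -1.15 in S phase cells and -1.30 in G2M cells, so it was present within each phase. Over these 24 genes it was -0.72 in resting DN3 cells, with 16 intervals below 0 and 5 above, and -0.65 in DN4 blasts, with 21 below and 1 above. The 24 were chosen by their levels in DN3 blasts, and some were near 0 in resting cells, such as Hist1h3g (0.312 CPM in WT and 0.0798 CPM in KI). Only 11 histone genes of the list reached 20 CPM in resting cells, with a median of -0.28. In DN4 blasts 21 did, with a median of -0.64. Hist1h1a was lower at each stage (-1.64 in resting DN3 cells and -1.004 in DN4 blasts).

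**Figure D3:**
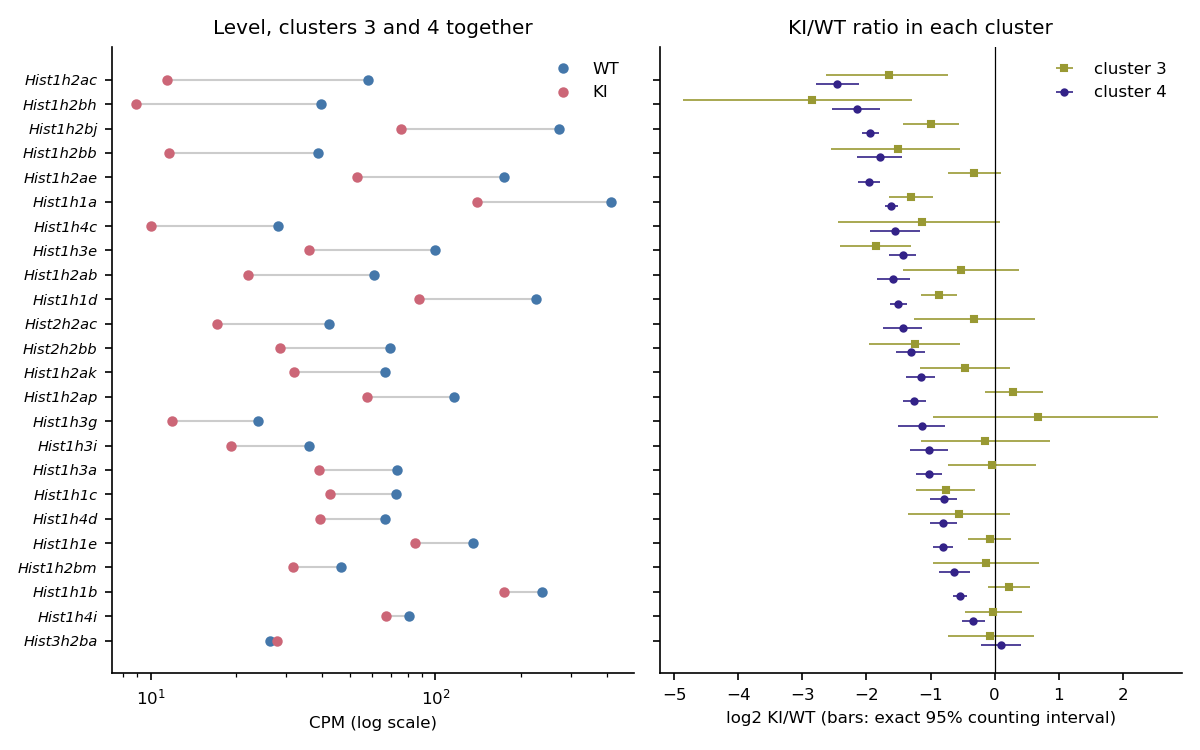
Left, level of the 24 measured histone genes (y axis) in WT and KI DN3 blasts (x axis, CPM, log scale); right, their log2 ratio of KI to WT level in clusters 3 and 4 (x axis) with 95% counting intervals. The KI level is the lower one for all genes but Hist3h2ba, and most ratios lie further below 0 in cluster 4 (median -1.28) than in cluster 3 (median -0.49).

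Short transcripts as a class were lower in KI blasts as well. The 51 genes whose longest transcript has at most 500 nucleotides had a median log2 ratio of -0.44, or -0.35 without histones (45 genes), while every longer class lay between 0.01 and 0.06. In resting DN3 cells the same class without histones had a median of -0.40 and in DN4 blasts of -0.14. Of the 24 measured histones, 6 were in this shortest class and 18 in the longer ones. Set against genes of their own length class, the histone median was -0.99 in place of -1.17. The part of transcript length in the histone result was not tested further.

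The promoters of the histone genes were examined because the genes were lower together. RefSeq (GRCm38.p6) gave a start for 22 of the 24. In the 150 bases before it, on either strand, 21 held CCAAT (95.5%, against 24.5% of 32851 promoters of the same length), 13 held TATAAA (59.1% against 7.57%) and 6 held the octamer ATTTGCAT (27.3% against 0.998%). These matches describe the letters only and are features of the gene family, shared by genes with large and small differences. Promoters of Hist1h2ac, Hist1h1a and Hist1h2bj are printed to show the arrangement in the genes with large ratios, on the strand of the gene, with each of these motifs in capitals in either orientation.
Hist1h2ac, chr13:23683960-23684109, minus strand: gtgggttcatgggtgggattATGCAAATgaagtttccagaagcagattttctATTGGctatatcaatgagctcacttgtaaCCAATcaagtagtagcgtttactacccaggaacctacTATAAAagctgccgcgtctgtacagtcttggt
Hist1h1a, chr13:23763518-23763667, plus strand: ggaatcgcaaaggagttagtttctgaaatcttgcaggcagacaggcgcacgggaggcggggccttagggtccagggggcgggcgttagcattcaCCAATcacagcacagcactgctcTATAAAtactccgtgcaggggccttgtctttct
Hist1h2bj, chr13:22043048-22043197, plus strand: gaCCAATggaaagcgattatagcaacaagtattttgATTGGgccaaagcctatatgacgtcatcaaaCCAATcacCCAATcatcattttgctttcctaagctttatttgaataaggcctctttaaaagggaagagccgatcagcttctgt

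Histone genes outside these clusters did not share the difference. Of 17 measured replacement histone and chaperone genes, 8 had intervals above 0 and 3 below, against 18.9% and 13.7% of all genes. The list's median was 0.06. Slbp, whose protein binds the histone mRNA stem-loop, was at 425 and 396 CPM (-0.10). Supt16, a subunit of the FACT histone chaperone, was at 138 and 192 CPM (0.48 [0.36, 0.59]). Hmgn2, a nucleosome-binding protein gene, was lower, at 663 and 397 CPM (-0.74 [-0.80, -0.68]), and so was Hmgb1, at 1474 and 982 CPM (-0.59 [-0.63, -0.55]).

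Of 42 replication fork and licensing genes, 12 had intervals above 0 and 0 below, against 18.9% and 13.7% of all genes, with a median of 0.07. Clspn, a checkpoint mediator at the fork, was at 61.1 and 91.5 CPM (0.58 [0.41, 0.75]). Timeless, a fork protection factor, was at 50.1 and 74.1 CPM (0.56 [0.37, 0.76]), and Pole, the catalytic subunit of the leading-strand polymerase, was at 27.7 and 39.3 CPM (0.51 [0.25, 0.77]). Of 58 mitosis genes, 30 had intervals above 0 and 3 below, against the same shares of all genes, with a median of 0.15. Kif4, a chromosome-associated kinesin, was at 15.1 and 23.3 CPM (0.62 [0.27, 0.98]), and Top2a, which untangles sister chromatids, was at 359 and 474 CPM (0.40). Tuba1b, an alpha tubulin, was lower, at 714 and 505 CPM (-0.50 [-0.56, -0.44]). The mitosis median was 0.21 within S phase cells and 0.02 within G2M cells, and G2M cells were 36.3% of KI against 30.7% of WT blasts. With S and G2M cells given equal weight, an alternative added after the data were seen, the median was 0.04.

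Among 20 cyclins, CDKs and their inhibitors, 10 had intervals above 0 and 2 below (median 0.11), beside 18.9% and 13.7% of all genes. Ccnb1, the mitotic cyclin B1, was at 86.7 and 114 CPM (0.40 [0.25, 0.55]). Cdk2 was at 87.6 and 68.1 CPM (-0.36 [-0.53, -0.20]). E2F and G1/S entry genes had a median of 0.00, with 3 of 22 intervals above 0 and 7 below, beside the same shares of all genes. Cdca7 (418 and 327 CPM, -0.35 [-0.43, -0.28]) and Tk1 (220.5 and 257 CPM, 0.22 [0.13, 0.32]) lay at the ends of that list. Dnmt1, the maintenance DNA methyltransferase, was at 145.5 CPM in WT and 232 CPM in KI blasts (0.67 [0.56, 0.78]), second to Hdac1 among 18 DNA methylation and polycomb genes, of which 6 had intervals above 0 and 0 below.

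Genes that respond to the pre-T cell receptor were described next. Of 8 measured members, 0 had intervals above 0 and 5 below, against 18.9% and 13.7% of all genes, with a median of -0.30 against 0.02 for all genes. Id3, an inhibitor of E proteins induced by receptor signals, was at 79.3 and 50.3 CPM (-0.66 [-0.84, -0.48]). In resting DN3 cells Id3 was at a log2 ratio of 0.15 and in DN4 blasts of -0.49. Cd28, a costimulatory receptor, was at 118 and 84.6 CPM (-0.49 [-0.63, -0.34]), and Myb, a transcription factor of dividing thymocytes, was at 235 and 182 CPM (-0.37 [-0.46, -0.27]). Cd69, an early activation marker, was at 28.9 and 22.6 CPM (-0.36 [-0.64, -0.07]), but was higher in KI within cluster 3 (0.28). The list's median was -0.27 in resting DN3 cells and -0.46 in DN4 blasts, so it was below 0 in all 3 populations.

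Of 13 immediate early genes, 7 had intervals below 0 and 2 above, against 13.7% and 18.9% of all genes, with a median of -0.23. Fos was at 153 and 102 CPM (-0.58 [-0.71, -0.45]) and Zfp36, which encodes an mRNA decay factor, was at 39.7 and 23.9 CPM (-0.73 [-0.995, -0.47]). Jun differed in the other direction, at 120.1 and 132 CPM (0.13 [0.01, 0.26]). Of 8 dissociation and heat shock genes, 5 had intervals below 0 and 3 above, with a median of -0.16 that was 0.15 in cluster 3. Hspa8, a constitutive chaperone gene, was at 5594 and 4121 CPM (-0.44 [-0.46, -0.42]).

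**Figure D4:**
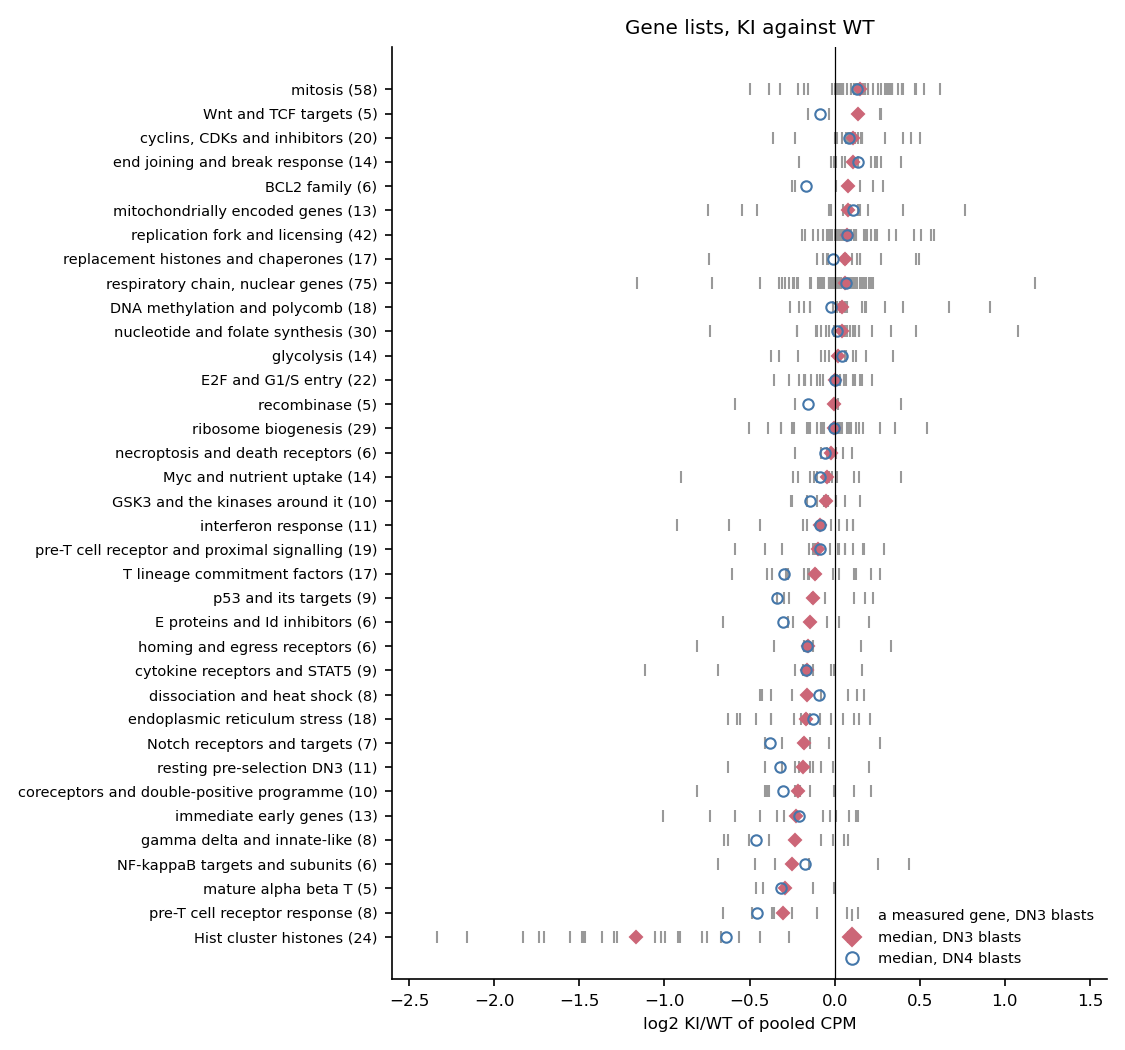
Log2 ratio of KI to WT level (x axis) for each gene list with at least 3 measured members (y axis, number measured in brackets), with ticks for single genes in DN3 blasts, diamonds for their median and open circles for the median in DN4 blasts. The Hist cluster histones lie furthest left, with a median of -1.17 in DN3 blasts.

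Of the genes of the pre-T cell receptor and its proximal signalling, 6 of 19 had intervals below 0 and 2 above, with a median of -0.10. Over all genes tested, 13.7% had intervals below 0 and 18.9% above, and each list of this paragraph is to be set beside these shares. Ptcra, the pre-T alpha chain gene, was at 107 and 86.6 CPM (-0.31 [-0.45, -0.16]). Ptprc, which encodes CD45, was higher, at 148 and 181 CPM (0.29 [0.17, 0.40]). Among Notch receptors and targets, 5 of 7 had intervals below 0 and 1 above (median -0.18), and Hes1, a direct Notch target, was at 51.7 and 38.9 CPM (-0.41 [-0.62, -0.19]). Of 6 NF-kappaB targets and subunits, 3 had intervals below 0 and 2 above (median -0.25). The 3 below were the feedback inhibitors Tnfaip3 (37.0 and 23.0 CPM, -0.69 [-0.96, -0.42]), Nfkbie (-0.47) and Nfkbia (-0.35). The 2 above were Nfkbib, also an inhibitor (0.26), and Nfkb1, a subunit (26.0 and 35.2 CPM, 0.44 [0.17, 0.71]). Of 9 cytokine receptor and STAT5 genes, 4 had intervals below 0 and 0 above (median -0.16), among them Il21r (46.2 and 28.7 CPM, -0.69 [-0.93, -0.45]).

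Of 10 measured coreceptor and double-positive programme genes, 7 had intervals below 0 and 1 above (Tox), with a median of -0.22; 13.7% of all genes had intervals below 0 and 18.9% above. Several of these genes were more abundant in resting DN3 cells than in blasts, such as Ccr9 (275 CPM in WT resting DN3 cells) and Arpp21 (758 CPM, against 204 CPM in WT blasts). Ccr9, a chemokine receptor gene of thymocytes, was at 44.2 and 25.2 CPM (-0.81 [-1.06, -0.56]). Themis, a regulator of receptor signalling, was at 63.7 and 48.0 CPM (-0.41 [-0.60, -0.22]). Of 11 genes of resting pre-selection DN3 cells, a list that shares Dntt with the former, 8 had intervals below 0 and 1 above, with a median of -0.19. Il2ra was at 186 and 163 CPM (-0.19 [-0.29, -0.08]). Of 17 T lineage commitment factors, 7 had intervals below 0 and 2 above (median -0.11). Runx1 was at 151 and 99.5 CPM (-0.60 [-0.73, -0.47]) and Gata3 at 82.8 and 68.4 CPM (-0.28 [-0.44, -0.11]). Tcf7, which encodes the factor TCF1, was higher, at 705 and 848 CPM (0.27 [0.21, 0.32]), against 0.04 in resting DN3 cells and -0.37 in DN4 blasts. Of 8 gamma delta and innate-like genes, 4 had intervals below 0 and 0 above, and Tcrg-C1, a gamma chain constant gene, was at 187 and 121 CPM (-0.63 [-0.74, -0.51]).

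Factors that regulate this step were mixed. The lists below are to be set beside all genes tested, of which 18.9% had intervals above 0 and 13.7% below. Of 6 E protein and Id genes, 1 had an interval above 0 and 2 below (median -0.14). Tcf12, which encodes the E protein HEB, was at 80.1 and 92.2 CPM (0.20 [0.05, 0.36]), while Tcf3, which encodes E2A, was at 220.1 and 224 CPM (0.03 [-0.07, 0.12]). Of 5 Wnt and TCF target genes, 3 had intervals above 0 and 1 below (median 0.13). Lef1, a TCF family factor gene, was at 300.0 and 269 CPM (-0.16 [-0.24, -0.07]), and Myc was at 162 and 158 CPM (-0.03 [-0.15, 0.08]). Of 11 interferon response genes, 4 had intervals below 0 and 2 above (median -0.09), with Isg15, a ubiquitin-like modifier gene, at 47.5 and 30.9 CPM (-0.62 [-0.85, -0.39]). Of 6 homing and egress receptor genes, 4 had intervals below 0 and 1 above. That 1 was Itga4, an integrin subunit gene, at 55.0 and 69.1 CPM (0.33 [0.14, 0.52]). Of 5 genes of mature alpha beta T cells, 4 had intervals below 0 and 0 above (median -0.29).

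Of 18 endoplasmic reticulum stress genes, 11 had intervals below 0 and 3 above, against 13.7% and 18.9% of all genes, with a median of -0.17. Hspa5, the chaperone BiP, was at 561 and 407 CPM (-0.46 [-0.53, -0.40]). Xbp1, a transcription factor of the unfolded protein response, was at 76.7 and 51.6 CPM (-0.57 [-0.75, -0.39]). Creld2 was at 78.4 and 50.8 CPM (-0.63 [-0.81, -0.44]). The list's median was -0.26 in cluster 4 and -0.01 in cluster 3.

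The genes of recombination and of DNA break repair, which act on the receptor loci, had list medians of -0.0017 and 0.11. Of 5 measured recombinase genes, 1 had an interval above 0 (Xrcc5, also in the next list) and 2 below (Dntt and Hmgb1). Hmgb1 was at 1474 and 982 CPM (-0.59 [-0.63, -0.55]). Rag1 (19.4 and 17.96 CPM) and Rag2 (11.8 and 8.27 CPM) were below the minimum of 20 CPM in both libraries. Of 14 end joining and break response genes, 5 had intervals above 0 and 0 below, with a median of 0.11; among all genes 18.9% were above and 13.7% below. Xrcc5, which encodes Ku80, was at 32.6 and 42.7 CPM (0.39 [0.15, 0.64]), and H2afx, whose protein is phosphorylated at breaks, was at 574 and 692 CPM (0.27 [0.21, 0.33]). Dntt, the polymerase that adds untemplated nucleotides to junctions, was at 1316 and 1121 CPM (-0.23 [-0.27, -0.19]). Of 9 genes of p53 and its targets, 3 had intervals below 0 and 1 above (median -0.13), with Mdm2 at 37.9 and 30.8 CPM (-0.30 [-0.55, -0.05]). Necroptosis and death receptor genes had 1 interval of 6 below 0 and 0 above, near the share of all genes below 0. In the BCL2 family, 2 of 6 had intervals above 0 and 2 below, with Bax at 145 and 169 CPM (0.22 [0.11, 0.34]) and Bcl2 at 43.4 and 36.4 CPM (-0.25 [-0.48, -0.02]).

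Metabolic lists were centred near 0. Their counts are to be set beside all genes tested, of which 18.9% had intervals above 0 and 13.7% below. The 75 nuclear respiratory chain genes had 33 intervals above 0 and 18 below (median 0.06), and the 14 glycolytic genes had 5 above and 3 below (median 0.02), with Gapdh at 194 and 155 CPM (-0.33 [-0.44, -0.22]). Nucleotide and folate synthesis genes had 9 of 30 above and 4 below, with Cad, which starts pyrimidine synthesis, at 39.4 and 55.0 CPM (0.48 [0.26, 0.70]). Of 13 mitochondrially encoded genes, 8 had intervals above 0 and 3 below (median 0.08), but the adjoining genes mt-Nd4 (468 and 798 CPM, 0.77 [0.71, 0.83]) and mt-Nd4l (1604 and 1100 CPM, -0.54 [-0.58, -0.51]), whose exons overlap, differed in opposite directions. Ribosome biogenesis genes (6 of 29 above, 9 below) and genes of Myc and nutrient uptake (2 of 14 above, 2 below) had medians of -0.01 and -0.04.

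Ribosomal protein genes were centred on 0 as a group, while single members were far from it. Of 88 measured genes, 36 had intervals above 0 and 39 below, against 18.9% and 13.7% of all genes. Counting intervals narrow as counts rise, so more of them exclude 0 among genes at high levels. The median of the 88 was 0.00, and they summed to 264448 CPM in WT and 254632 CPM in KI blasts. Rpl35 was at 1398 and 581 CPM (-1.27 [-1.31, -1.22]), Rps29 at 2354 and 1088 CPM (-1.11 [-1.15, -1.08]) and Rpl36a at 1185 and 568 CPM (-1.06 [-1.11, -1.01]). At the other end, Rpl21 was at 676 and 1328 CPM (0.97 [0.92, 1.02]). These genes have many near-identical pseudogenes, and the rule for reads that match several copies is not given in the sources used here.

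Of the 7 genes at least 2-fold higher in KI, Trbv17 was the furthest, and few cells produced it. It had 51 UMIs in 4 of the WT blasts and 382 UMIs in 10 of the KI blasts, or 7.79 and 39.0 CPM (2.32 [1.90, 2.77]). Of the KI UMIs, 338 (88.5%) came from the 8 cells with a TRBV17 contig, and 1 cell gave 102. Its ratio was -0.25 in cluster 3 and 4.07 in cluster 4. Trbv23, the furthest lower segment gene (-2.21), had 386 UMIs in 8 WT blasts, 163 of them in 1 cell, and 125 UMIs in 5 KI blasts. Both segment ratios thus rested on a few cells of each library. The productive TRBV17 chains made up 1 of 281 WT and 8 of 421 KI chains (0.356% and 1.90%), each with its own CDR3. The WT chain and the first 3 KI chains are printed to show that the KI cells were not 1 clone, with the end codons in capitals as above.
WT TRBV17 chain 1: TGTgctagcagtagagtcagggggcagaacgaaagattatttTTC
KI TRBV17 chain 1: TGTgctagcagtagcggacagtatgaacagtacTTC
KI TRBV17 chain 2: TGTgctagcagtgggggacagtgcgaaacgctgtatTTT
KI TRBV17 chain 3: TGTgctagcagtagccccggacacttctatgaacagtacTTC

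The other 6 higher genes were spread over many functions. Dynlt1f, a dynein light chain gene, was at 11.2 and 34.6 CPM (1.63 [1.26, 2.02]). Cycs, which encodes cytochrome c, was at 39.1 and 88.4 CPM (1.18 [0.97, 1.38]). Ywhaq, a 14-3-3 protein gene, was at 32.7 and 74.2 CPM (1.18 [0.96, 1.41]). Nme1, a nucleoside diphosphate kinase gene, was at 152.5 and 322 CPM (1.08 [0.98, 1.18]), while its neighbour Nme2, with which its exons overlap, was at 156.5 and 94.3 CPM (-0.73 [-0.86, -0.60]). Reads of such overlapping genes cannot be assigned with certainty. Sys1, a Golgi protein gene, was at 10.6 and 23.4 CPM (1.15 [0.75, 1.56]) and the pseudogene Gm10036 at 9.78 and 20.01 CPM (1.03 [0.62, 1.46]). Just under 2-fold were Erh (95.5 and 187 CPM, 0.97 [0.84, 1.11]) and Hdac1, a histone deacetylase gene (39.4 and 74.1 CPM, 0.91 [0.70, 1.12]). Myh9, non-muscle myosin heavy chain, was at 77.5 and 129 CPM (0.73 [0.58, 0.88]).

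Set beside resting DN3 cells of the same libraries, the genotype ratio of the blasts was rarely far apart. At 20 CPM, 37 of 5964 genes were at least 2-fold apart between genotypes in resting cells (0.62%). Of 4673 genes measured in both populations, 4 (0.0856%) had log2 ratios at least 1 apart. Emb was the one with a higher ratio in blasts (by 1.52), and Hist1h2ap (by -1.61), Hist1h2ae (by -1.43) and Hist1h1b (by -1.12) were the 3 with lower ratios. In resting cells Hist1h2ap (0.59) and Hist1h1b (0.69) were higher in KI, and Hist1h2ae was lower (-0.28).

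Set beside DN4 blasts, which come from the other pair of libraries, more genes stood apart. In DN4 blasts 25 of 5149 genes were at least 2-fold apart between genotypes (0.486%), and 29 of 4893 genes (0.593%) had log2 ratios at least 1 apart from those in DN3 blasts, 19 of them higher in DN3 and 10 lower. A log2 ratio of at least 0.5 in the same direction was found for 71 of 5026 genes (1.41%), among them Junb, Apobec3 and Cd96, and in opposite directions for 27 (0.537%). Of these 27, 17 were higher in KI DN3 blasts and lower in KI DN4 blasts. Cycs was at 1.18 in DN3 and -1.04 in DN4 blasts, Ywhaq at 1.18 and -0.90, and Hdac1 at 0.91 and -0.95. The other 10 were lower in KI DN3 blasts and higher in KI DN4 blasts, among them Atp5k, an ATP synthase subunit gene (-1.16 and 0.93), and Rps29 (-1.11 and 0.92). In resting DN3 cells, 25 of the 27 had the same sign as in DN3 blasts, the exceptions being the segment genes Trbv17 and Trbv12-2. The exons of 8 of the 27 (29.6%) overlap another gene, against 8.67% of all genes compared. The median longest transcript was 1397 nucleotides for the 17, 672.5 for the 10 and 2923.5 for all genes compared. The submitters' processing notes name Cell Ranger 3.1.0 and 6.0.1 without saying which library each was used for, and the part of that in these values was not tested.

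**Figure D5:**
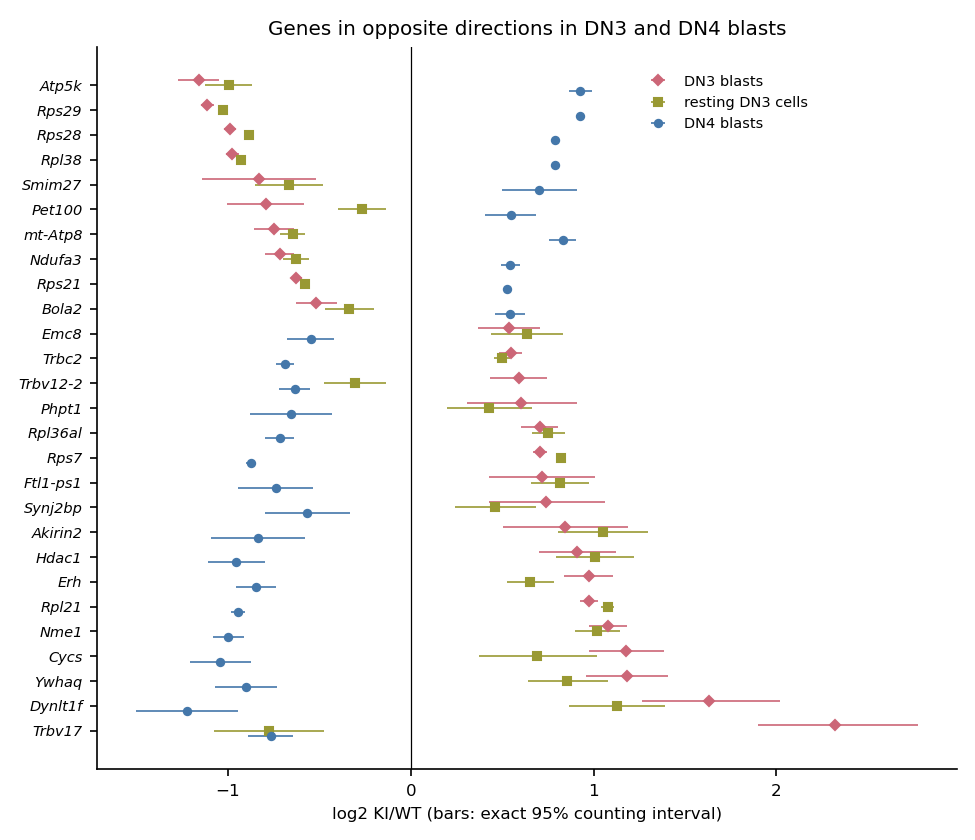
Log2 ratio of KI to WT level (x axis) of the 27 genes (y axis) at least 0.5 from 0 in opposite directions in DN3 and DN4 blasts, with 95% counting intervals, beside resting DN3 cells. The 2 blast populations lie on opposite sides of 0 for each gene, and 25 of the resting DN3 points lie on the side of the DN3 blasts.

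Ccnb1ip1, a ubiquitin ligase gene below the minimum, is given because its direction differed between stages; it was chosen after its values were seen. It was at 19.1 CPM in WT and 6.53 CPM in KI DN3 blasts (-1.55 [-2.01, -1.10]), with a ratio of -3.34 in cluster 3 and -0.13 in cluster 4. In DN4 blasts it was at 19.5 and 71.8 CPM (1.88). The difference within DN3 blasts was therefore carried by cluster 3.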

How the data were processed

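Single-cell 5′ expression and T cell receptor libraries of sorted DN3 and DN4 thymocytes were analysed from the deposited tables, 4 expression and 4 receptor libraries, 1 of each kind per genotype and stage. The submitters' processing notes list mm10 as the build and Cell Ranger in versions 3.1.0 and 6.0.1; the role of each version, the filters on cells and genes, and the clustering method are not given in the sources used here. Per the file headers, the authors deposited raw UMI counts (whole numbers, 15653 genes by 10237 cells) and a cell table with library, cluster (0 to 9) and cell cycle phase, and receptor contigs with UMI counts per contig. No column of values was left unmapped (0). The deposited clonotype shares were not used here.

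UMI counts were summed over the cells of clusters 3 and 4 in each DN3 library and divided by their total (CPM). Genes reaching 20 CPM on at least one side were compared as log2 of KI over WT, with an exact conditional binomial 95% interval, and genes at least 2-fold apart were counted. Shares have exact Clopper-Pearson intervals, and a count of 0 allows 3 counts. Intervals and floors cover counting error only, and since each group was 1 library there was no test between genotypes. Distinct beta chains were counted by CDR3 nucleotide sequence per cell. Depth was compared after thinning to 5000 UMIs per cell. Scrublet (run through scanpy 1.11.5) scored doublets library by library. Promoters were taken from RefSeq (GRCm38.p6).

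Named genes were those at least 2-fold apart, the 15 ratios at each end with an interval clear of 0 (leaving out receptor, ribosomal protein, mitochondrially encoded and sex-linked genes), up to 4 members of each of 43 gene lists, up to 6 a direction whose ratio differed by at least 1 from resting DN3 cells or DN4 blasts, all members of the GSK3 list, and up to 4 TRBV segments. Some genes that the rule names are not reported here. Genes given besides these were chosen after their values were seen. The cells and the gene lists were chosen with earlier results of these data known.

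Alternatives were other scalings (TMM in edgeR 4.0.16 under R 4.3.3, and the median of ratios), minimums of 5 and 50 CPM, a 1.5-fold threshold, totals without receptor, ribosomal protein and mitochondrially encoded genes, each cluster alone, S and G2M cells weighted equally, the mean over cells, thinning, cells with a productive beta chain, cells marked by Scrublet left out, centring on transcript length, and a contig minimum of 3 UMIs. Scripts (Python 3.11.15, numpy 2.4.6, scipy 1.17.1, pandas 2.3.3) were tested on simulated data.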

Additional observations from a re-analysis of the deposited data

Results flagged for a closer look

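A set of 27 genes had a log2 ratio of KI to WT of at least 0.5 in DN3 blasts and of at least 0.5 in the opposite direction in DN4 blasts, 0.537% of 5026 genes compared. Each stage had 1 library per genotype, so the difference between stages was not tested, and no group had enough samples to look for a sample far from the others. Values are given for DN3 blasts and then DN4 blasts.

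Of the 10 genes lower in KI DN3 blasts, the ribosomal protein genes were Rps29 (-1.113 and 0.92), Rps28 (-0.9886 and 0.79), Rpl38 (-0.9759 and 0.79) and Rps21 (-0.6251 and 0.53). Subunits or assembly factors of the respiratory chain and ATP synthase were Atp5k (-1.16 and 0.93), Pet100 (-0.7924 and 0.55), mt-Atp8 (-0.746 and 0.83) and Ndufa3 (-0.7177 and 0.55). The remaining ones were Smim27 (-0.8289 and 0.70) and Bola2 (-0.5176 and 0.54).

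Of the 17 genes higher in KI DN3 blasts, receptor genes were Trbc2 (0.5461 and -0.69), Trbv12-2 (0.5902 and -0.63) and Trbv17 (2.323 and -0.77). Ribosomal protein genes were Rpl36al (0.7051 and -0.72), Rps7 (0.7063 and -0.87) and Rpl21 (0.9743 and -0.95). Genes furthest apart among the rest were Dynlt1f (1.633 and -1.22), Ywhaq (1.182 and -0.90), Cycs (1.176 and -1.04) and Nme1 (1.08 and -0.998), followed by Erh (0.9723 and -0.85), Hdac1 (0.9102 and -0.95) and Akirin2 (0.8416 and -0.83). The others were Synj2bp (0.7395 and -0.57), Ftl1-ps1 (0.7169 and -0.74), Phpt1 (0.6055 and -0.66) and Emc8 (0.5347 and -0.55).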

How the results depend on the processing

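The counts of genes past the fold threshold followed the threshold, the minimum and the depth. Genes at least 1.5-fold higher were 38 and lower 104. With a minimum of 5 CPM, 23 genes were 2-fold higher and 74 lower. With 50 CPM they were 3 and 19, and 473 intervals lay below 0, since fewer genes were tested. In cluster 3 alone, which holds fewer cells, 21 were higher and 47 lower, and 604 intervals lay above 0 and 419 below. After thinning to 5000 UMIs per cell, 12 were higher and 47 lower, with 415 intervals above 0 and 449 below. In cluster 3 alone the medians were -0.52 for the pre-T cell receptor response, -0.61 for the histones that passed 20 CPM there and -0.013 for endoplasmic reticulum stress. The median changed sign for homing and egress receptors (0.18 in cluster 3, 0.013 at 50 CPM) and for heat shock genes (0.15 in cluster 3). The log2 ratio changed sign in cluster 3 for Bid (0.050), Cd69 (0.28), Cdc25b (-0.51), Hist1h1b (0.22), Hist1h2ap (0.29), Hsph1 (0.38), Nfkbia (0.13) and Trbv17 (-0.25), in cluster 4 for Trbv12-2 (-0.047) and after thinning for Dnmt3a (-0.13); the cause was not tested. The cluster 3 intervals of Hist1h1b and Hist1h2ap included 0. Over cells with a productive beta chain, blasts were 44.1% in WT and 55.8% in KI, and KI cells of cluster 3 had a productive beta chain in 87.0%. Of 466 list medians, 445 stayed between the median lower limit and the median upper limit of the list's genes. That range reflects counting error of single genes and is not an interval of the list median. Of 1769 gene ratios, 1618 stayed within the interval of the reported value. TMM factors and the median of ratios moved all log2 ratios by 0.00317 and 0.00577. The median of the histones measured under each alternative, a set that changes with it, ranged from -1.25 to -0.61. Equal weights on S and G2M cells and centring on transcript length were chosen after seeing the data; equal weights on all 3 phases could not be run, since 1 WT and 0 KI blasts were in G1. No paired analysis was possible because each group had 1 library and the labels give no replicate numbers, and for the same reason no library could be left out. Depth limits single genes: the median interval was 0.39 wide on the log2 scale.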
